A study of Oryza sativa with 6 samples.

Results

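Cytochromes P450 are heme enzymes of the endoplasmic reticulum that draw electrons from NADPH and insert an oxygen atom into small molecules. In plant roots, members of this superfamily act in the synthesis of lignin monomers, of suberin and cutin fatty acids, of hormones and of defensive terpenoids, and in the breakdown of herbicides. The loci described here are 10 cytochrome P450 genes of rice, out of 55982 loci with an expression value. They were picked because their FPKM (the fragments of a locus per unit of transcript length and of mapped library size) differed from the wild type (WT) in roots of both lines overexpressing *OsMYB305*. The changes against the WT are therefore what chose the loci, so they are given as a description, with no p-value, and the calls counted below only restate them. Of the 10 loci, 9 are annotated by the study only as cytochrome P450, without a family, and LOC_Os02g09240 is annotated as P450 71D8. The 71D8 name places it in a large and diverse group of plant P450s and gives no substrate.

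Roots of OE15, OE20 and the WT were each sequenced as 2 libraries, 6 in all. OE15 and OE20 are independent lines of cultivar ZH11 that carry the coding sequence of *OsMYB305*, an R2R3-MYB transcription factor, behind the CaMV 35S promoter, which is active in most plant cells. The WT was ZH11 without the transgene, and no line with an empty vector is among the groups. All plants were labelled 14 days old and received 0.288 mM NH4NO3 as a low nitrogen supply. The study grew seedlings in sand before moving them to hydroponic culture. Whether the 14 days count from sowing or from that move was not determined. The labels do not say whether the libraries of a genotype came from separate plants, so every p-value measures only the spread between these libraries, which may be technical.

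The overexpressed gene, *OsMYB305* (LOC_Os01g45090), was at 150.2 and 148.3 FPKM in the libraries of OE15 and 81.3 and 80.2 FPKM in those of OE20, against 0.0388 and 0.0576 FPKM in the WT. The root nitrate transport genes *OsNRT2.1*, *OsNRT2.2* and *OsNAR2.1* were above 5 FPKM in each of the 6 libraries. They were not constant, and were higher in every OE library than in the WT libraries. In OE15 and OE20, *OsNRT2.1* was at 161% and 133% of its WT mean, *OsNRT2.2* at 155% and 131%, and *OsNAR2.1* at 140% and 142%. FPKM keeps no read totals. Judged by the spacing of low values at 961 loci, the libraries had 0.984 to 1.36 times the depth of WT replicate 1, and WT replicate 2 was the deepest. The loci tested were the 20627 whose FPKM averaged 1 or more over the 6 libraries. The Pearson correlation of their log2(FPKM + 0.1), across loci, was 0.984 to 0.988 between libraries of 1 genotype and 0.965 to 0.976 between genotypes.

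Of the 10 P450 loci, 9 were lower and LOC_Os06g39780 was higher in the OE roots than in the WT. For the 9 lower loci the mean FPKM lay between 33.4% and 67.7% of the WT mean in OE15 and between 37.5% and 61.8% in OE20. LOC_Os06g39780 was at 529% of its WT mean in OE15 and at 322% in OE20. Summed over the 9 lower loci, the level was 32.7 ± 0.635 FPKM in OE15, 36.0 ± 0.562 FPKM in OE20 and 66.9 ± 2.17 FPKM in the WT (SD, n = 2 each), so that 48.8% of the WT sum was left in OE15 and 53.7% in OE20. In RNA from whole roots, fewer cells of a type and less RNA per cell cannot be told apart.

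**Figure D1:**
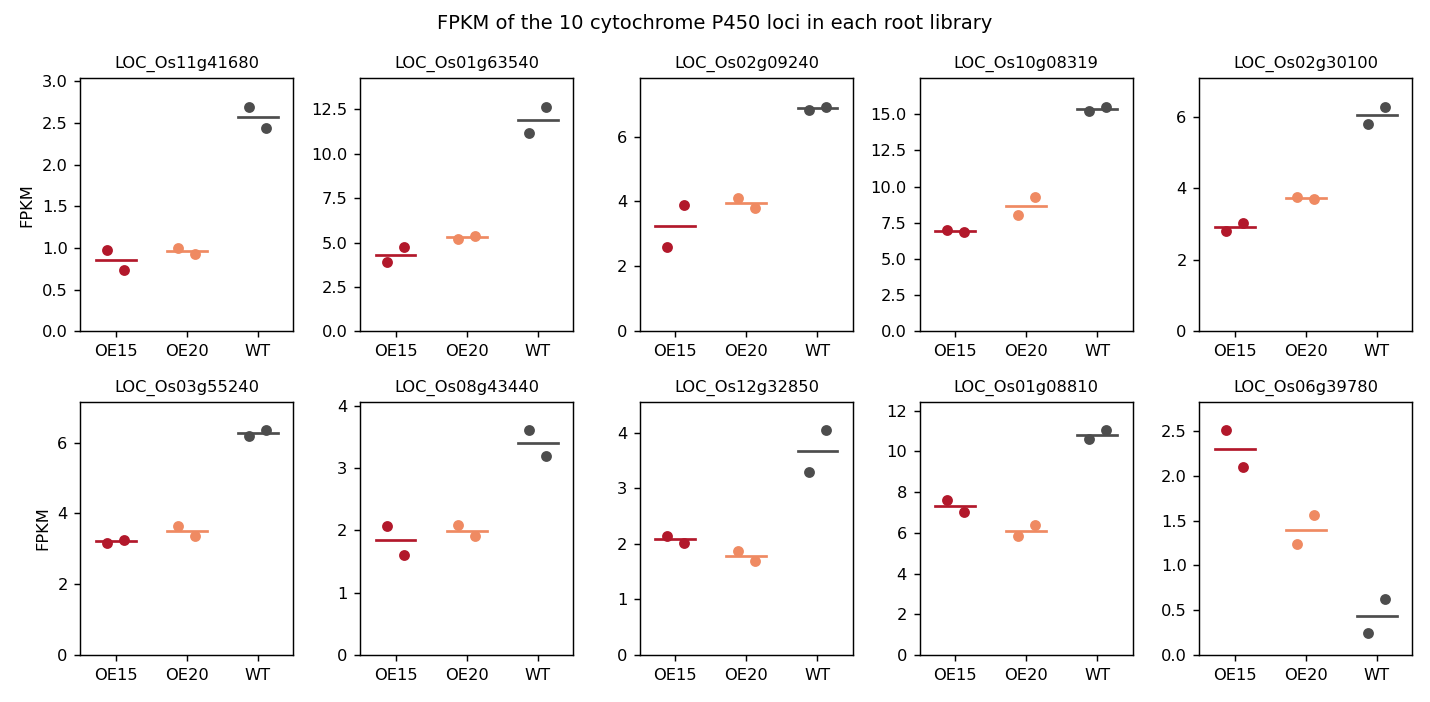
FPKM (vertical axes, each from 0) of the 10 P450 loci in OE15, OE20 and WT roots; points are the 2 libraries of each genotype and lines are their means. The OE points lie below the WT points in 9 panels and above them for LOC_Os06g39780, which was at 2.51 and 2.096 FPKM in the libraries of OE15 and at 0.241 and 0.63 FPKM in the WT.

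Levels were low to moderate in all genotypes. The highest locus in the WT was LOC_Os10g08319, at 6.97 and 6.83 FPKM in the libraries of OE15 and 8.01 and 9.25 FPKM in those of OE20, against 15.2 and 15.5 FPKM in the WT. Its WT mean stood at the 61.8th percentile of the loci tested. The OE libraries all lay below the WT libraries, and the OE15 libraries lay below the OE20 libraries. Its log2 fold change (on the log2(FPKM + 0.1) scale, as are all those below) was -1.14 for OE15 and -0.83 for OE20 (standard error 0.081).

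LOC_Os01g63540 was at 3.89 and 4.72 FPKM in the libraries of OE15 and 5.21 and 5.36 FPKM in those of OE20, against 11.2 and 12.7 FPKM in the WT. Each OE15 value was below both OE20 values, and all 4 were less than the lower WT value. With log2 fold changes of -1.45 and -1.16 in OE15 and OE20 (standard error 0.11), it had the second largest fall of the 9 loci in both lines. LOC_Os11g41680 had the largest, with 0.974 and 0.738 FPKM in the libraries of OE15 and 0.998 and 0.928 FPKM in those of OE20, against 2.70 and 2.44 FPKM in the WT. It was also the lowest of the 9 in every genotype. Its log2 fold changes were -1.49 in OE15 and -1.33 in OE20 (standard error 0.21), and the values of the 2 lines overlapped. The order of these loci depended on the value added to FPKM. With 1 added in place of 0.1, LOC_Os11g41680 had log2 fold changes of -0.94 in OE15 and -0.86 in OE20. Those of LOC_Os01g63540 were then larger, at -1.29 and -1.04.

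LOC_Os02g30100 was at 2.79 and 3.03 FPKM in the libraries of OE15 and 3.77 and 3.69 FPKM in those of OE20, against 5.79 and 6.29 FPKM in the WT. The 3 genotypes did not overlap, with OE15 lowest, and the log2 fold changes were -1.03 and -0.68 in OE15 and OE20 (standard error 0.10). LOC_Os02g09240, the locus annotated as 71D8, was at 2.601 and 3.88 FPKM in the libraries of OE15 and 4.12 and 3.80 FPKM in those of OE20, against 6.81 and 6.93 FPKM in the WT. Its OE15 libraries were the furthest apart of the 9 lower loci, with a coefficient of variation of 27.9%, and the higher of them reached into the range of OE20. Its log2 fold changes were -1.09 in OE15 and -0.78 in OE20 (standard error 0.17).

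LOC_Os03g55240 was at 3.16 and 3.25 FPKM in the libraries of OE15 and 3.65 and 3.36 FPKM in those of OE20, against 6.18 and 6.35 FPKM in the WT. Replicates were close in each genotype, and the log2 fold changes were -0.95 in OE15 and -0.82 in OE20 (standard error 0.095). LOC_Os08g43440 was at 2.08 and 1.60 FPKM in the libraries of OE15 and 2.09 and 1.91 FPKM in those of OE20, against 3.61 and 3.19 FPKM in the WT. Here the 2 lines overlapped, and the log2 fold changes were -0.86 and -0.74 in OE15 and OE20 (standard error 0.17).

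Only 2 of the 9 lower loci had their larger fall in OE20. LOC_Os12g32850 was at 2.15 and 2.02 FPKM in the libraries of OE15 and 1.87 and 1.70 FPKM in those of OE20, against 3.30 and 4.05 FPKM in the WT, with log2 fold changes of -0.78 in OE15 and -0.995 in OE20 (standard error 0.15). LOC_Os01g08810 was at 7.61 and 7.05 FPKM in the libraries of OE15 and 5.85 and 6.36 FPKM in those of OE20, against 10.6 and 11.04 FPKM in the WT. In OE15 it was the most abundant of the 10 loci. Its log2 fold changes were -0.56 in OE15, under the limit of 1.5-fold used here, and -0.82 in OE20 (standard error 0.079). It had the smallest fall of the 9 loci in OE15. Both loci had lower values in each OE20 library than in either OE15 library.

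LOC_Os06g39780 was the 1 locus with higher values in the OE roots, at 2.51 and 2.096 FPKM in the libraries of OE15 and 1.24 and 1.56 FPKM in those of OE20, against 0.241 and 0.63 FPKM in the WT. The genotypes did not overlap, and the order of the levels (OE15, OE20, WT) was also that of *OsMYB305*. For this locus the 95% interval of the log2 difference between the lines ran from -0.18 to 1.55, so their order was not resolved. Libraries of OE15 and OE20 were also separate in 57.8% of the loci tested. LOC_Os06g39780 was the least abundant of the 10 loci in the WT, at the 0.247th percentile of the loci tested. That low rank follows from the minimum mean of 1 FPKM, which it passed only through the OE libraries. The locus made up 0.366% and 0.911% of the summed FPKM of the 10 loci in the WT. In OE15 its share of that sum was 7.23% and 5.95%, and in OE20 3.37% and 4.11%. The log2 fold changes were 2.26 in OE15 and 1.58 in OE20 (standard error 0.37), and because the WT values are near the pseudocount of 0.1 they depended on it, with 1.21 and 0.75 at a pseudocount of 1. The WT libraries were far apart, with a coefficient of variation of 63.2%: without WT replicate 1 the log2 fold changes were 1.72 in OE15 and 1.03 in OE20, and without WT replicate 2 they were 2.81 and 2.13.

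In the order of WT levels, LOC_Os10g08319 was followed by LOC_Os01g63540, LOC_Os01g08810, LOC_Os02g09240, LOC_Os03g55240, LOC_Os02g30100, LOC_Os12g32850, LOC_Os08g43440, LOC_Os11g41680 and LOC_Os06g39780. The WT libraries overlapped between LOC_Os03g55240 and LOC_Os02g30100 and between LOC_Os12g32850 and LOC_Os08g43440, so these neighbours in the order were not separated by their spread. In OE15, LOC_Os06g39780 stood seventh, with values that overlapped those of LOC_Os12g32850, and in OE20 ninth, above LOC_Os11g41680.

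**Figure D2:**
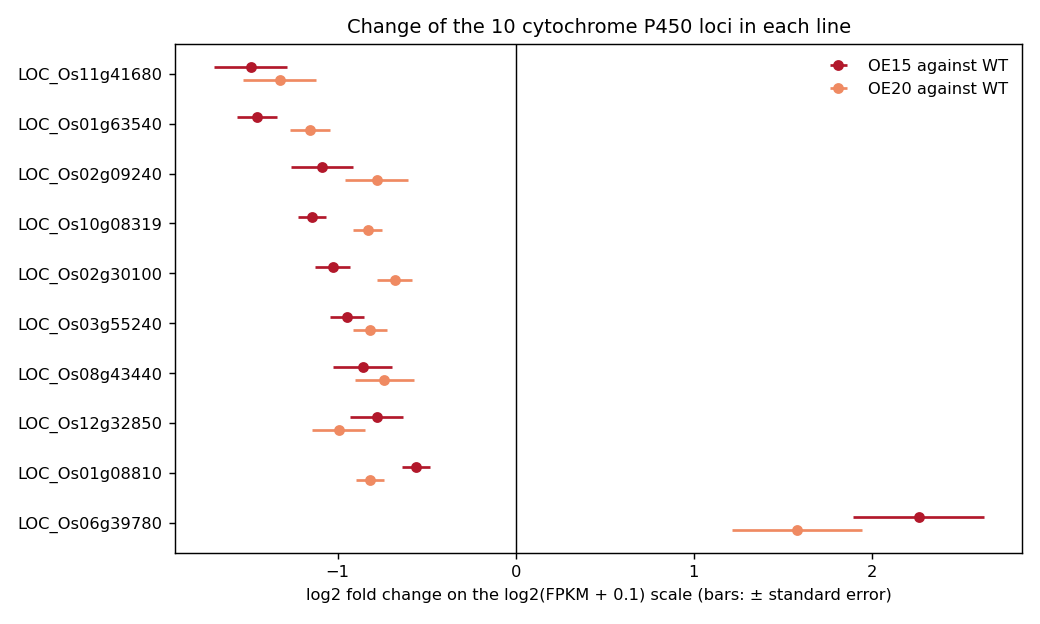
Log2 fold change (horizontal axis, log2(FPKM + 0.1) scale) of the 10 P450 loci in OE15 and OE20 against the WT; bars are ± standard error from limma. The 9 lower loci lie between -1.49 and -0.56 in OE15 and between -1.33 and -0.68 in OE20, and LOC_Os06g39780 lies at 2.26 and 1.58.

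Between libraries of 1 genotype, the median coefficient of variation of the 10 loci was 9.22% in OE15, 5.85% in OE20 and 6.45% in the WT, beside 3.75%, 4.10% and 4.24% over all loci tested. The loci tested were not matched to the 10 for level. These values therefore do not show whether the 10 varied more than loci of like abundance.

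All 10 loci passed the minimum mean of 1 FPKM over the 6 libraries. LOC_Os06g39780 was under 1 FPKM in the WT and LOC_Os11g41680 under 1 FPKM in both lines, so each passed only through the genotypes where it was high. The other 8 had a mean of at least 1 FPKM in all 3 genotypes. The median log2 fold change of the 9 lower loci was -1.03 in OE15 and -0.82 in OE20, beside medians of 0.02 and 0.02 over all loci tested. At an adjusted p under 0.05 from limma and a change above 1.5-fold, 8 of the 10 loci were called lower in OE15 (2.59% of all loci tested) and 9 in OE20 (1.64%). LOC_Os06g39780 was called higher in both lines, as were 2.90% of the loci tested in OE15 and 1.46% in OE20. In both lines together, 8 were called lower (1.08% of the loci tested) and 1 higher (1.03%), which makes 9 of the 10 beside 2.11% of the loci tested. Since the loci were chosen on these contrasts, the counts restate the choice. All 4 OE libraries lay below both WT libraries for 9 of the 10 loci, an arrangement found in 14.8% of the loci tested, and above them for 1 (18.9%). The 10 calls in OE20 became 5 without OE20 replicate 2 and 6 without WT replicate 1, and the 9 calls in both lines became 4 without OE20 replicate 2.

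The calls of 5 loci depended on single libraries. LOC_Os06g39780 lost its call in OE20 when any 1 library other than WT replicate 2 was left out. LOC_Os02g09240 and LOC_Os08g43440 each lost theirs in OE20 in 4 of 6 such fits, without either WT library and without either OE20 library. In OE15, LOC_Os08g43440 also lost its call without WT replicate 1 and without OE15 replicate 2, and LOC_Os12g32850 without WT replicate 2 and without OE15 replicate 2. LOC_Os12g32850 lost its call in OE20 without OE20 replicate 2, and LOC_Os11g41680 without WT replicate 1 and without OE20 replicate 2. The direction of each was kept in all of these fits. LOC_Os01g08810, not called in OE15 with all libraries, had a log2 fold change there of -0.56. Past the limit of 1.5-fold, it was -0.59 without WT replicate 1 and -0.61 without OE15 replicate 1.

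The choice of loci did not use OE15 against OE20, although it drew on the same libraries. This comparison asks whether the size of the change followed the line, since *OsMYB305* was higher in OE15 by a log2 difference of 0.89 (limma, adjusted p = 0.000886). The change against the WT, on which the loci were chosen, was larger in OE15 for 8 of the 10 loci, among them 7 of the 9 lower ones. Of all 435 loci called in both lines in the same direction, 61.8% had the larger change in OE15. For the 223 called lower in both lines the share was 64.1%. Tested directly with limma, 0 of the 10 P450 loci passed both limits (adjusted p under 0.05, change above 1.5-fold) for OE15 against OE20. Of all loci tested, 2.06% passed them, 0.863% with OE15 lower and 1.20% with OE15 higher. At an unadjusted p under 0.05 there were 4 of the 10, beside 27.6% of all loci tested.

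The lowest adjusted p was that of LOC_Os10g08319, which was lower in OE15 than in OE20 by a log2 difference of -0.31 (95% interval -0.50 to -0.12, adjusted p = 0.0506 from limma). Over the 16 fits made, its adjusted p ran from 0.0366 to 0.192, and the difference stayed under 1.5-fold in each. LOC_Os02g30100 differed by -0.35 (-0.59 to -0.11, adjusted p = 0.0698, 0.0477 to 0.258 over 15 fits of limma) and LOC_Os01g63540 by -0.30 (-0.56 to -0.03, adjusted p = 0.141). In the other direction, LOC_Os01g08810 was higher in OE15 by 0.26 (0.07 to 0.45, adjusted p = 0.082 from limma). These 4 intervals leave out a difference of 0, though none of the 4 passed the adjustment over all loci.

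For the other 6 loci the interval of the difference held 0. It ran from -0.65 to 0.32 for LOC_Os11g41680, from -0.72 to 0.11 for LOC_Os02g09240 and from -0.51 to 0.27 for LOC_Os08g43440, so that a difference of 1.5-fold (0.58 on the log2 scale) between the lines lies within the first pair of intervals and outside the last. The interval of LOC_Os03g55240, -0.35 to 0.10, was the narrowest of the 6, and that of LOC_Os12g32850 ran from -0.14 to 0.57. LOC_Os06g39780 had the largest difference of the 10, 0.68 higher in OE15, and the widest interval, -0.18 to 1.55 (adjusted p = 0.282 from limma). Both OE15 libraries stood on one side of both OE20 libraries for 7 of the 10 loci, 4 below and 3 above, an arrangement found in 57.8% of the loci tested.

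**Figure D3:**
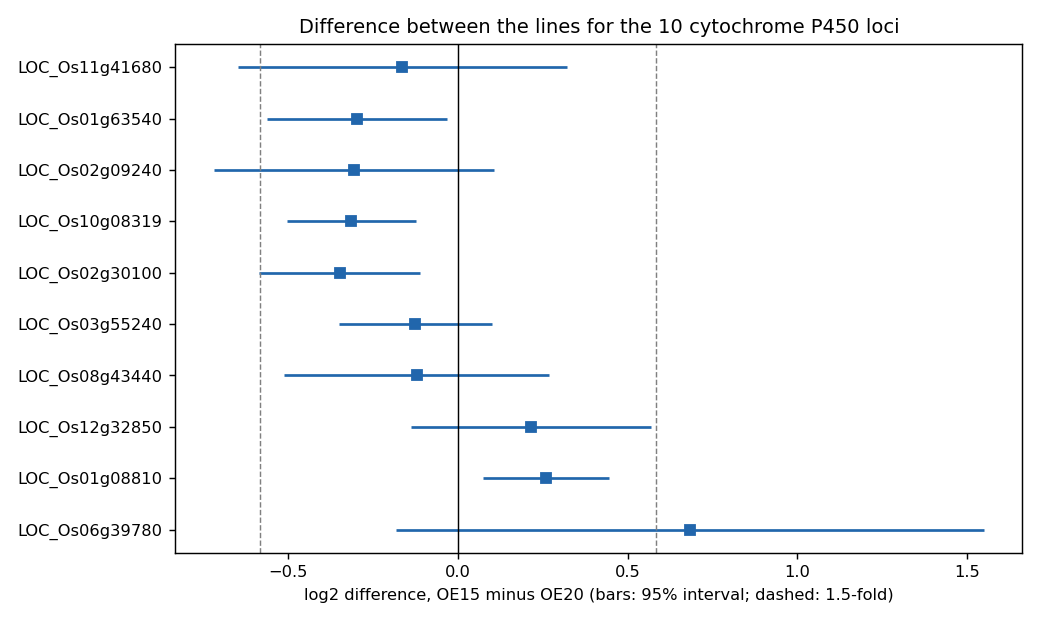
Log2 difference between OE15 and OE20 (OE15 minus OE20, horizontal axis) of the 10 P450 loci, with 95% intervals from limma; dashed lines mark 1.5-fold. The squares run from -0.35 for LOC_Os02g30100 to 0.68 for LOC_Os06g39780, and 4 of the 10 intervals leave out 0.

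The study lists 20 changed loci as cytochrome P450, of which 12 were lower and 8 higher in both lines by the means of FPKM. The 10 that are not described above were likewise listed from these libraries, so their direction is no independent evidence. LOC_Os06g24180 is annotated as P450 84A1, the name in *Arabidopsis* of the ferulate hydroxylase that leads to syringyl lignin. It was at 1.94 and 1.70 FPKM in the libraries of OE15 and 1.57 and 1.78 FPKM in those of OE20, against 6.10 and 6.16 FPKM in the WT. That is 29.7% and 27.3% of the WT mean in OE15 and OE20, less than was left of any of the 9 lower loci. LOC_Os04g10160 was at 1.35 and 1.80 FPKM in the libraries of OE15 and 1.26 and 1.64 FPKM in those of OE20, against 4.82 and 4.89 FPKM in the WT. LOC_Os09g26940, at 0.333 ± 0.0222 FPKM in OE15 and 0.42 ± 0.0702 FPKM in OE20 against 1.26 ± 0.0102 FPKM in the WT (SD, n = 2 each), was under the minimum mean and was not tested.

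The other 7 had higher values in both lines, where LOC_Os06g39780 was the 1 such locus among the 10 described. LOC_Os02g21810 is annotated to P450 family 51, known for the sterol demethylases of fungi, animals and plants. It was at 2.78 and 2.54 FPKM in the libraries of OE15 and 1.75 and 1.24 FPKM in those of OE20, against 0.786 and 0.536 FPKM in the WT, and its log2 fold changes were 1.88 in OE15 and 1.07 in OE20 (standard error 0.25). LOC_Os02g36070 had log2 fold changes of 1.35 and 1.007 (standard error 0.11) and LOC_Os01g11300 of 1.03 and 1.20 (standard error 0.16) in OE15 and OE20. LOC_Os07g44130 is annotated as P450 72A1, a name first given to the secologanin synthase of *Catharanthus*. Its log2 fold changes were 0.65 in OE15 and 0.71 in OE20 (standard error 0.090). The most abundant of the 20 loci in the WT was LOC_Os01g58970, at 41.5 ± 0.184 FPKM in OE15 and 42.2 ± 0.921 FPKM in OE20 against 30.6 ± 0.485 FPKM in the WT (SD, n = 2 each). With log2 fold changes of 0.44 and 0.46, it was under the limit of 1.5-fold in both lines. Of the 9 tested, 2 were called lower in both lines (1.08% of all loci tested) and 6 higher (1.03%), counts that again restate the study's choice. Among the higher, LOC_Os02g21810 was under 1 FPKM in both WT libraries and passed the minimum mean only through the OE libraries.

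**Figure D4:**
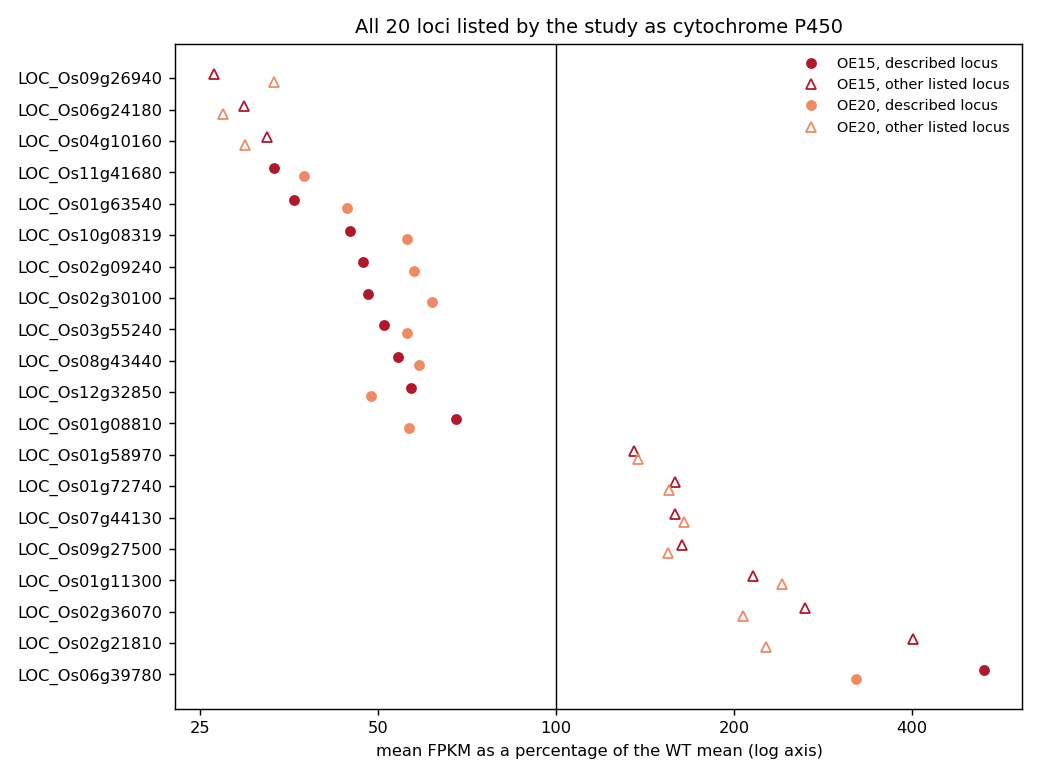
Mean FPKM in OE15 and OE20 as a percentage of the WT mean (log axis) for the 20 loci the study lists as cytochrome P450; filled circles are the 10 loci described here and open triangles the other 10. Of the 20, 12 lie below 100% in both lines and 8 above, with LOC_Os06g39780 at 529% in OE15 and 322% in OE20.

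The 10 loci lie on 8 chromosomes by their MSU names, with a pair each on chromosomes 1 and 2, and none was within 5 listed loci of another. P450 genes often stand in tandem arrays of similar copies, so the loci around each member were examined. They were not chosen for their values. Within 5 listed loci on each side there were 100 neighbours, of which 37 passed the minimum mean and 33 were listed at 0 in all 6 libraries. None of the 100 was another locus the study lists as P450. That list holds only changed loci, so a P450 gene that did not change could not appear on it. Whether any of the neighbours is a P450 gene was therefore not determined. The median log2 fold change of the 37 tested neighbours was -0.05 in OE15 and -0.08 in OE20. Of the 37, 2 were called lower in OE15 (5.41%, beside 2.59% of all loci tested) and 2 higher (5.41%, beside 2.90%). In OE20, 1 was called lower (2.70%, beside 1.64%) and 0 were called higher at the same limits of limma, beside 1.46%.

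The 1 neighbour called in both lines was LOC_Os01g63580, which lies 4 listed loci from LOC_Os01g63540 and is annotated as a glycerol-3-phosphate acyltransferase. Enzymes of that class attach fatty acids to glycerol phosphate in the synthesis of membrane, storage, cutin and suberin lipids. It was at 6.69 and 6.30 FPKM in the libraries of OE15 and 6.98 and 7.64 FPKM in those of OE20, against 13.2 and 14.5 FPKM in the WT. The log2 fold changes were -1.08 in OE15 (adjusted p = 0.00023 from limma) and -0.91 in OE20 (adjusted p = 0.000851, standard error 0.082). Both it and LOC_Os01g63540 had lower values in the OE libraries than in the WT libraries.

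Under the minimum mean, 3 loci on one side of LOC_Os02g30100 had lower values in all OE libraries than in the WT. They were picked out after their values were seen, and no source used here names them. LOC_Os02g30060, 4 listed loci away, was at 0.186 and 0.29 FPKM in the libraries of OE15 and 0.194 and 0.231 FPKM in those of OE20, against 0.772 and 0.838 FPKM in the WT. The locus 3 places away was listed at 0 in all 4 OE libraries, against 0.569 and 0.473 FPKM in the WT. The locus 2 places away was at 0.024 and 0.024 FPKM in the libraries of OE15 and 0 and 0.1 FPKM in those of OE20, against 0.196 and 0.145 FPKM in the WT. With no minimum, the first pair of these were called lower in both lines by limma. Whether they share reads with LOC_Os02g30100 was not tested. The adjacent locus on the same side did not go lower: it was at 0 in the WT and OE15 libraries and at 0.024 and 0.052 FPKM in those of OE20. The adjacent locus on the other side was at 0.101 and 0.198 FPKM in the libraries of OE15 and 0.038 and 0.021 FPKM in those of OE20, against 0.041 and 0.015 FPKM in the WT.

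LOC_Os06g39800 lies 2 listed loci from LOC_Os06g39780, and no source used here names it. It was at 2.83 and 3.59 FPKM in the libraries of OE15 and 1.88 and 2.92 FPKM in those of OE20, against 1.19 and 1.66 FPKM in the WT. Its log2 fold change was 1.13 for OE15 (adjusted p = 0.0221 from limma) and 0.70 for OE20 (adjusted p = 0.131, standard error 0.26). How reads that match several loci were assigned is not given in the sources used here, and whether reads are shared between LOC_Os06g39800 and LOC_Os06g39780, both higher in OE15 than in the WT, was not tested. LOC_Os03g55280, 4 listed loci from LOC_Os03g55240, was lower in OE15 by a log2 fold change of -0.67 (adjusted p = 5.93e-05 from limma), and its change in OE20, -0.43 (adjusted p = 0.000656, standard error 0.036), was under 1.5-fold. Between the lines it was lower in OE15 by -0.24 (adjusted p = 0.00807 from limma), also under 1.5-fold.

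**Figure D5:**
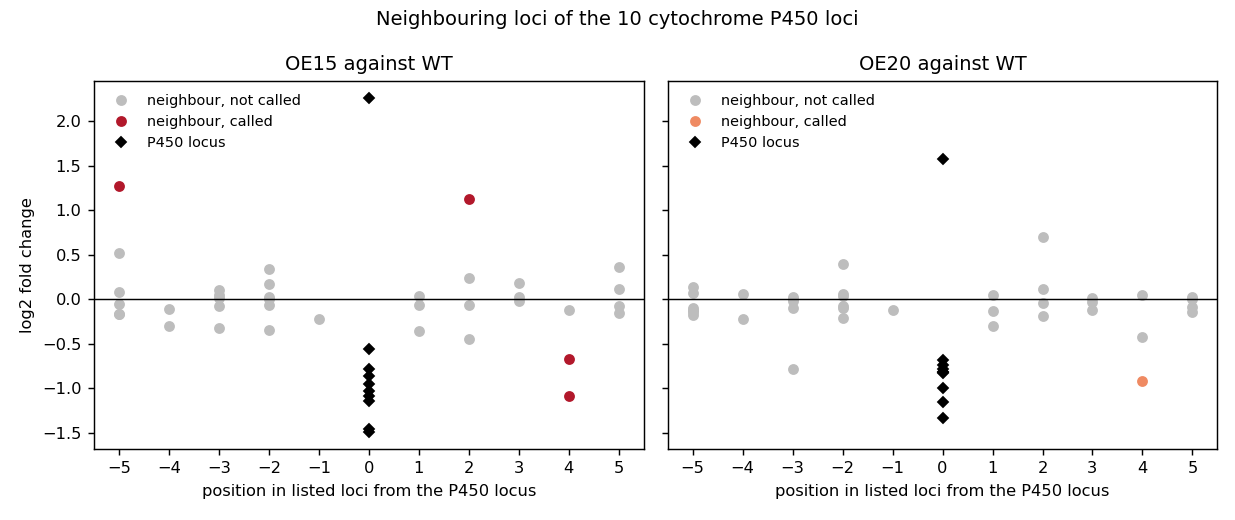
Log2 fold change (vertical axes) of the 37 tested neighbours, by their position in listed loci from the P450 locus at 0, in OE15 and OE20 against the WT; black diamonds are the 10 P450 loci and coloured points are neighbours called by limma. There are 4 coloured points in OE15 and 1 in OE20, and the uncoloured point of LOC_Os06g39800 in OE20 lies at 0.70.

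The profiles over the 6 libraries were also set against those of all loci tested, by the Euclidean distance between log2(FPKM + 0.1) values after each locus's mean was taken off. The locus nearest to LOC_Os06g39780 was LOC_Os01g19330 (distance 0.43), annotated as a MYB family transcription factor, at 3.35 and 3.19 FPKM in the libraries of OE15 and 1.75 and 1.68 FPKM in those of OE20, against 0.306 and 0.708 FPKM in the WT. Next came LOC_Os04g22380 (distance 0.60), annotated as a short chain dehydrogenase/reductase, a class of NAD(P)-dependent oxidoreductases. It was at 4.13 and 3.67 FPKM in the libraries of OE15 and 3.10 and 2.81 FPKM in those of OE20, against 0.604 and 0.932 FPKM in the WT. LOC_Os11g41680 was the lower locus with the largest mean change on this scale. The locus nearest to it was LOC_Os01g42380 (distance 0.18), annotated as a pleiotropic drug resistance protein, a class of ABC transporters. It was at 1.07 and 0.855 FPKM in the libraries of OE15 and 1.099 and 1.19 FPKM in those of OE20, against 2.93 and 2.83 FPKM in the WT. LOC_Os01g42110 (distance 0.28), annotated to the nodulin MtN3 family, which includes sugar transporters, was more abundant, at 21.5 and 20.8 FPKM in the libraries of OE15 and 23.5 and 22.5 FPKM in those of OE20, against 56.8 and 49.8 FPKM in the WT. With 2 libraries per genotype, such likeness rests mainly on the 3 genotype means. The members were chosen for their changes against the WT, so the loci nearest to them share those changes through that choice. LOC_Os01g19330 and LOC_Os04g22380 were under 1 FPKM in both WT libraries and passed the minimum mean only through the OE libraries.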

How the data were processed

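Root RNA of 3 genotypes was sequenced as 2 libraries each. According to the series text and the processing notes, the authors used FastQC 0.11.8, Trimmomatic 0.38, HISAT2 2.1.0 and Cufflinks 2.2.1. The values the authors deposited are FPKM, 1 value per locus and library, not pooled. The genome build, annotation release, strand setting and treatment of reads with several matches are not given in the sources used here, so near-identical, overlapping and antisense genes carry that limit. Loci carry MSU names. Annotations came from the study's list of changed genes, whose fold changes were not used. The RefSeq gene table (assembly ASM3414082v1) holds 0 MSU names, so no coordinates are printed.

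Each file has 55991 rows, and 4 repeated locus names were dropped. Loci averaging 1 FPKM or more over the 6 libraries entered limma 3.58.1 (R 4.3.3) as log2(FPKM + 0.1), with the variances moderated along a mean trend, in 1 fit of the 3 genotypes (3 residual degrees of freedom), with Benjamini-Hochberg adjustment over all 20627 loci. A call needed a change above 1.5-fold and an adjusted p under 0.05. The fit was tested on simulated data with planted changes. FPKM holds no read totals, so no counting interval is given.

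The named loci are *OsMYB305*, the 10 loci, the other 10 listed P450 loci, called neighbours within 5 listed loci, and the 2 loci nearest in profile to the members with the largest rise and fall. LOC_Os08g43390 is 1 of these neighbours, and LOC_Os02g30060 was added after its values were seen. The members and lists were chosen with earlier results of these data known. The alternatives were other pseudocounts (1, 0.01), dropping the minimum or raising it to 5 FPKM, scaling by quantiles or by median ratios, a replicate block, a fit per contrast, no trend, no fold limit, ratios of group means, a window of 10 loci for neighbours, and leaving out single libraries.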

Additional observations from a re-analysis of the deposited data

Results flagged for a closer look

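Among the loci named here, a pair passed both limits of limma (adjusted p under 0.05 and above 1.5-fold) in the direct test of OE15 against OE20. *OsMYB305* (LOC_Os01g45090) differed by 0.89 (log2, OE15 minus OE20, standard error 0.073, adjusted p = 0.000886 by limma). LOC_Os08g43390, which lies 5 listed loci from LOC_Os08g43440 and is named by no source used here, was at 17.6 and 18.2 FPKM in the libraries of OE15 and 8.23 and 7.93 FPKM in those of OE20, against 7.46 and 7.20 FPKM in the WT. Its log2 difference between OE15 and OE20 was 1.14 (95% interval 0.99 to 1.28, adjusted p = 0.000174 from limma), whereas LOC_Os08g43440 itself was lower in both lines than in the WT.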

How the results depend on the processing

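The direction against the WT held for the 10 loci in both lines under each alternative run. With a minimum mean of 5 FPKM, which left 3 of the 10 to be tested, the called P450 loci were 2 in OE15, 3 in OE20 and 2 in both lines. With each library left out in turn, calls ran from 7 to 10 in OE15, from 5 to 9 in OE20 (10 with all libraries) and from 4 to 9 in both lines. The neighbours called in both lines were 3 with no minimum FPKM, 2 with the replicate block (1 lower and 1 higher) and 2 with no limit on the fold change, against 1. The P450 loci passing both limits between the lines were 0 under each alternative. Left out in turn, the libraries moved the difference between the lines from -0.34 to 0.016 for LOC_Os11g41680 and from -0.30 to 0.054 for LOC_Os08g43440, the sign turning without OE15 replicate 2. Counting each locus under each alternative in which it was tested, a call was lost 4 times and gained 2 times in OE15 and lost 24 times in OE20. With no minimum and with no trend, the calls lost in OE20 were those of LOC_Os02g09240, LOC_Os08g43440 and LOC_Os06g39780, and with a pseudocount of 1 those of LOC_Os02g30100 and LOC_Os08g43440. In separate fits LOC_Os06g39780 was under the minimum for OE20 and was not tested. Over all loci, those lower in both lines were 223, against 753 with no fold limit, 109 with a minimum mean of 5 FPKM and 141 without WT replicate 2; those higher were 212, against 831 with no fold limit and 121 with the minimum of 5. Loci differing between the lines were 425, against 2387 with no fold limit and 233 with the minimum of 5. Nothing in the sources pairs the replicate numbers, and their deviations correlated at 0.0226, 0.0314 and -0.0685 across loci; with the replicate block, 9 of the 10 loci were called in OE15, 10 in OE20 and 9 in both lines, and 0 differed between the lines. At these levels, 2 libraries per genotype and no read totals limit the precision most for LOC_Os06g39780 and LOC_Os11g41680.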
